A study of Mus musculus with 10 samples.

Results

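The comparison described here was miR-29a against a negative control miRNA (NC-miR) in the colorectum of mice on day 4 of experimental colitis, over every gene measurable in either group. All mice of both groups were BALB/c, 7 weeks old, and received 2% dextran sodium sulfate (DSS), a sulfated polysaccharide that damages the colonic epithelium when animals ingest it. Both groups also received tail vein injections on days 1, 2 and 3 of a miRNA carried by super carbonate apatite (sCA), a nanoparticle carrier for nucleic acids, and tissue was taken on day 4. They differed in the miRNA carried, and each had 2 of the 10 mRNA sequencing libraries of the series. The other libraries were 2 each of miR-29b on day 4, NC-miR on day 2 and untreated normal mice of the same strain and age. The labels number the replicates but do not say whether each came from 1 animal, so p-values measure only the spread between these libraries, which may be technical. The labels also do not say which cells took up the particles. All differences are measured on whole tissue, in which fewer cells of a type and less RNA per cell cannot be told apart.

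Members were the 12728 of 23284 listed features that lay above a floor in both libraries of miR-29a or in both of NC-miR. Of these, 12247 lay above it in all 4 libraries, 35 lay at the floor in both miR-29a libraries and 95 in both NC-miR libraries. The deposited values are log2 ratios of each gene to a baseline of its own, so they compare libraries within a gene and say nothing of the level of one gene against another. The difference given below is the mean of the miR-29a libraries minus the mean of the NC-miR libraries on this log2 scale, with the standard error of limma and n = 2 libraries in each group. A gene counted as called at an adjusted p of 0.05 or less from limma over all features tested. Groups are said not to overlap where both libraries of one lay above both libraries of the other. With 2 libraries against 2, an exact permutation test of a single gene cannot go below a 2-sided p of 0.333.

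miRNAs are short RNAs that guide an Argonaute protein to messenger RNAs, mostly through pairing of the miRNA seed with the 3′ untranslated region, after which the messenger is usually repressed or degraded. The miR-29 family is best known for repressing collagens, elastin and other matrix genes, DNA methyltransferases and TET demethylases, and the survival gene Mcl1. In the bowel it has been studied in dendritic cells, where IL-23 is a described target, and in fibrosis. The mature strands are printed with the seed, bases 2 to 8 from the 5′ end, in capitals, because every target search below rests on those letters.
miR-29a-3p: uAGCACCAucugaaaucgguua
miR-29b-3p: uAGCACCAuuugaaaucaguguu
miR-29c-3p: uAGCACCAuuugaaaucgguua
These sequences are from RefSeq (GRCm38.p6), where miR-29a-3p has 22 bases and lies on chromosome 6, positions 31062673 to 31062694, minus strand. The 3 seeds are identical. Counted from the 5′ end, miR-29a differs from miR-29b by C10U, G18A, U21G and A22U, all outside the seed, and miR-29b has 1 further base, for 23 in all. The injected strands were not measured, since the libraries report longer messenger RNA. The precursor features Mir29a and Mir29b-1 lay at the floor in all 4 libraries. Mir29c was listed at 0.05 and 2.04 with NC-miR and at 2.54 and 3.11 with miR-29a, a difference of 1.78 ± 0.63 (limma adjusted p = 0.625). That feature overlaps longer transcripts, so its reads cannot be ascribed to a precursor.

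No feature was called between miR-29a and NC-miR (0 of 12728 by limma, 0%), and the smallest adjusted p was 0.116. At an unadjusted p of 0.05 or less there were 996 members (7.83%), of which 654 were higher with miR-29a (5.14%) and 342 lower (2.69%). The groups did not overlap for 5395 members (42.4%), 2872 with miR-29a higher (22.6%) and 2523 with miR-29a lower (19.8%). The median size of the difference was 0.16, beside a median gap of 0.15 between the miR-29a libraries and of 0.20 between the NC-miR libraries. The difference is between means of 2 libraries and the gap between single libraries, so these sizes are not directly comparable. Only 99 members (0.778%) differed by more than 1 on the log2 scale, and the 1st and 99th percentiles of the difference were -0.70 and 0.84. The median difference over all members was 0.02, and 53.1% were above 0. Fits to the 4 libraries alone called 2 small nucleolar RNA features, Snord16a and Snora64, whose NC-miR values lay at the floor.

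Among single genes with miR-29a higher, the smallest p values were those of Snord16a, Ugt1a1, Rpl30 and Ubd. Snord16a, a small nucleolar RNA carried in an intron of the ribosomal protein gene Rpl4, was at the floor in both NC-miR libraries and stood at 3.00 and 1.84 with miR-29a, at least 587-fold higher (at least 9.20 ± 0.95 in log2, limma adjusted p = 0.116). Its values in the normal libraries, 1.71 and 2.65, lay near those with miR-29a. Its host gene Rpl4 differed by only 0.31 ± 0.17. Snora64, another RNA of this class, was alike, at the floor with NC-miR and at 2.07 and 1.92 with miR-29a, but also at the floor in 1 miR-29b library. Of 13 small nucleolar and Cajal body RNA features among the members, 10 (76.9%) differed by more than 1 in either direction, against the 0.778% of all members given above. This class was defined after the values were seen and counts Snord16a and Snora64, which were members only through their miR-29a libraries. The shares are therefore a description and not a test of the class. The class also varied within a group, with a gap of up to 8.72 between the NC-miR libraries, and its median of 1.59 was 0.39 without NC-miR replicate 2.

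Ugt1a1, which encodes the enzyme that conjugates bilirubin, read -0.02 and 0.19 with NC-miR and 1.28 and 1.33 with miR-29a, a difference of 1.22 ± 0.14 (limma adjusted p = 0.137). The miR-29b libraries lay between, at 0.51 and 0.72, and the normal libraries lowest, at -0.47 and -0.58. Against normal, the miR-29a libraries were 1.83 higher (limma adjusted p = 0.00149) and the NC-miR libraries 0.61 higher (limma adjusted p = 0.119). Ugt1a1 shares its last exons with the other genes of the Ugt1a locus, so its count may hold reads of its neighbours.

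Rpl30, a protein of the large ribosomal subunit, read -1.61 and -1.56 with NC-miR and 0.21 and -0.17 with miR-29a, a difference of 1.60 ± 0.23 (limma adjusted p = 0.328). Here the NC-miR libraries stood apart from all others, since miR-29b read -0.12 and 0.30 and normal 0.26 and -0.15. NC-miR was 1.64 below normal (limma adjusted p = 0.0338) and miR-29a 0.04 below. Slc2a5, the fructose transporter, read -0.53 and 0.04 with NC-miR, the first at the floor, and 0.97 and 1.62 with miR-29a (1.54 ± 0.26, limma adjusted p = 0.328). Ubd, the ubiquitin-like modifier FAT10, read -0.50 and -0.31 against 0.50 and 0.53 (0.93 ± 0.14, limma adjusted p = 0.328). For each of these genes both miR-29a libraries lay above both NC-miR libraries.

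Further genes of small p with miR-29a higher were Wdr54 and Gkn3, a gastrokine, both at the floor with NC-miR (at least 1.13 ± 0.18 and at least 0.93 ± 0.15). Next were Igsf23 (0.89 ± 0.14), the tetraspanin Tspan4 (1.00 ± 0.17), the homeobox gene Isl1 (0.89 ± 0.15), the zinc finger gene Zfp688 (0.74 ± 0.13) and Rhebl1 (1.12 ± 0.20), a small GTPase related to Rheb. Larger differences with a wider spread were seen in Inmt, an N-methyltransferase, with -0.62 and -0.87 under NC-miR and 1.17 and 0.68 under miR-29a (1.67 ± 0.39, limma adjusted p = 0.462). Ear11, of the eosinophil-associated ribonuclease family, differed by 2.07 ± 0.64, but its miR-29a libraries stood 1.86 and 0.34 and its close relatives could share its reads. Snora70 (1.59 ± 0.65) and Rmnd1 (1.55 ± 0.64), a mitochondrial translation factor, completed the largest differences, and that of Rmnd1 rested on 1 NC-miR library at -2.23, the other being at 0.15.

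In the opposite direction, Aqp4, a water channel, read 1.13 and 0.97 with NC-miR and -0.37 and -0.16 with miR-29a, a difference of -1.32 ± 0.22 (limma adjusted p = 0.328). Normal libraries read -0.86 and -0.67, so NC-miR was 1.82 above normal (limma adjusted p = 0.0232) and miR-29a 0.50 above (limma adjusted p = 0.473). Both miR-29a libraries therefore lay between NC-miR and normal, as did those of miR-29b at 0.46 and -0.18. Aqp4 is among the genes reported as miR-29 targets, but the annotated 3′ UTR used here held no seed match. Homer1, a scaffold protein of glutamate receptor signalling, read 0.48 and 0.50 against -0.28 and -0.35 (-0.81 ± 0.14, limma adjusted p = 0.328). Pspn, the neurotrophic factor persephin, read 0.81 and 0.73 against -0.22 and -0.28, with 1 miR-29a library at the floor (-1.02 ± 0.18, limma adjusted p = 0.328).

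Metabolic genes stood among the rest of the lower genes. Hk2, the inducible hexokinase of glycolysis, read 0.52 and 0.37 with NC-miR and -0.24 and -0.41 with miR-29a (-0.77 ± 0.16), while miR-29b read 0.38 and 0.25. Cox10, needed to build cytochrome oxidase, differed by -0.72 ± 0.16 and Hao2, a peroxisomal hydroxy acid oxidase, by -0.78 ± 0.17. The others were the glycosyltransferase gene Mgat4c (-0.82 ± 0.14), Apol7a (-0.74 ± 0.13), the adhesion gene Ceacam2 (-0.90 ± 0.17), the centriole gene Cenpj (-0.57 ± 0.13) and Traip (-0.83 ± 0.19), a ubiquitin ligase of DNA replication. Pla2g2a, a secreted antibacterial phospholipase, read 1.29 and 0.78 against -0.68 and -0.11 (-1.43 ± 0.39, limma adjusted p = 0.57). None of these genes passed limma, with adjusted p between 0.328 and 0.57.

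**Figure D1:**
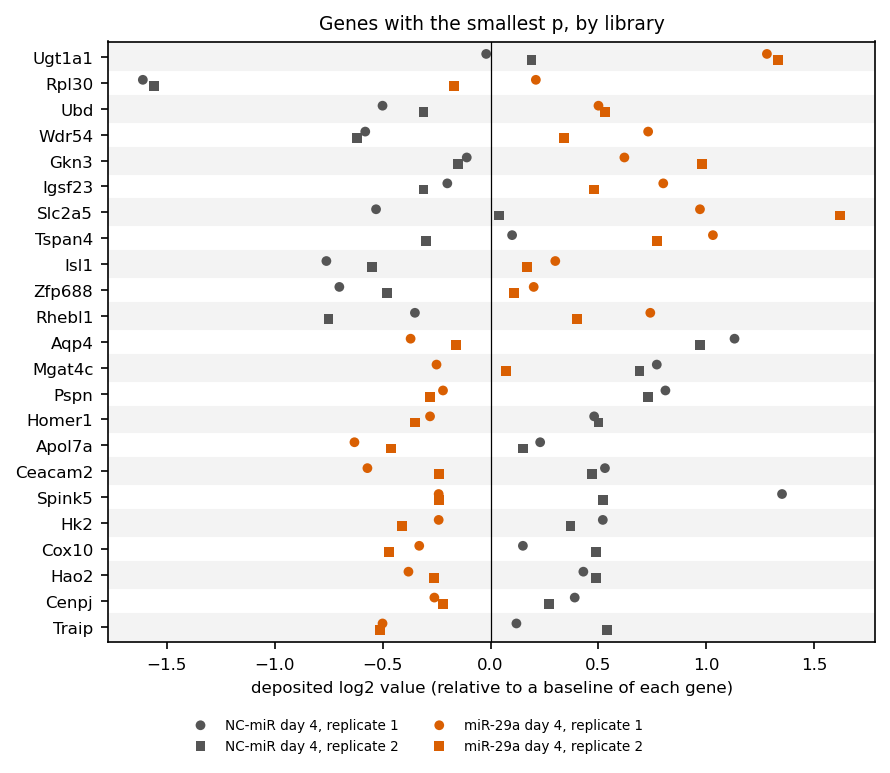
Deposited log2 values of the 23 named genes of smallest p other than Snord16a, 11 with miR-29a higher and 12 lower, 1 point per library (grey NC-miR, orange miR-29a, circles replicate 1, squares replicate 2). For each gene the grey and orange points do not overlap, which is part of the rule that chose them, and the widest gap within a group is that of Spink5 with NC-miR, at 1.35 and 0.52.

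Squamous epithelial genes, which mark the anal canal rather than the colon, were high in 1 NC-miR library and included the largest lower differences among the genes named by p and lack of overlap. Krt14, the basal keratin of squamous epithelium, read 6.05 and -0.50 with NC-miR and lay at the floor in both miR-29a libraries, a difference of at most -3.98 ± 1.63 (limma adjusted p = 0.644). Sprr1a, of the cornified envelope, read 2.28 and -0.95 against -1.43 and -1.58 (-2.17 ± 0.85). Spink5, an epidermal protease inhibitor, lay at the floor with miR-29a (-1.18 ± 0.23 as a bound). Of 27 squamous genes listed, 10 were members, with medians of 1.74 and -0.23 in the NC-miR libraries and of -0.37 and -0.27 with miR-29a. Replicate 1 of NC-miR was therefore the only one of the 4 libraries with a raised squamous level. The median difference of the list was -1.09, and it was -0.21 without NC-miR replicate 1 and -2.08 without replicate 2. Without replicate 1, Krt14 differed by -0.70, Sprr1a by -0.56 and Spink5 by -0.76. Without replicate 2 they differed by -7.25, -3.79 and -1.59, so the size of these differences rested on replicate 1.

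Genes induced by type I interferon, the antiviral program downstream of the type I interferon receptor, were lower with miR-29a throughout the list. All 40 listed genes were members, 40 of 40 had a difference below 0 (46.9% of all members did), and the groups did not overlap for 36 (19.8% of all members). Their median difference was -0.73, beside 0.02 over all members, and 20 of 40 had an unadjusted p of 0.05 or less in that direction (2.69% of all members). No gene of the list was called, and the smallest limma adjusted p was 0.611. The median of the list read 0.39 and -0.10 in the NC-miR libraries, -0.58 and -0.41 with miR-29a, -0.43 and -0.10 with miR-29b and -1.24 and -1.34 in normal tissue. The miR-29a libraries thus lay between NC-miR and normal, and 1 miR-29b library equalled the lower NC-miR library.

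Oas2, an oligoadenylate synthetase that activates RNase L, read 1.30 and 0.22 with NC-miR and -1.44 and -1.16 with miR-29a (-2.06 ± 0.59, limma adjusted p = 0.617). Ifi44 read 1.04 and -0.09 against -1.29 and -1.44 (-1.84 ± 0.66). Ifit1, which binds viral RNA caps, read 0.89 and 0.24 against -1.33 and -0.54 (-1.49 ± 0.62). The protease Usp18, a brake on the interferon receptor, read 0.54 and -0.13 against -1.38 and -1.09 (-1.44 ± 0.62), and the ubiquitin-like Isg15, which Usp18 removes from proteins, 0.59 and -0.13 against -1.21 and -0.45 (-1.06 ± 0.45). Both miR-29a libraries lay below both NC-miR libraries for each of these 5 genes, and NC-miR replicate 1 was the highest of the 4 every time.

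The members of smallest p in the list included Herc6, a ligase that attaches Isg15 (-0.95 ± 0.27), Oasl2 (-1.26 ± 0.39), the transcription factor Irf9 (-0.81 ± 0.25) and Rtp4 (-1.18 ± 0.37). Irf9 read 0.30 and 0.06 with NC-miR and -0.68 and -0.57 with miR-29a. The 4 genes with overlapping groups were Zbp1, Rsad2, Ifit2 and Mx1. NC-miR replicate 1 lay above replicate 2 for 40 of 40 genes, and the list median was -0.41 without replicate 1 and -1.01 without replicate 2. Without replicate 1, 39 of 40 genes still had a difference below 0.

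**Figure D2:**
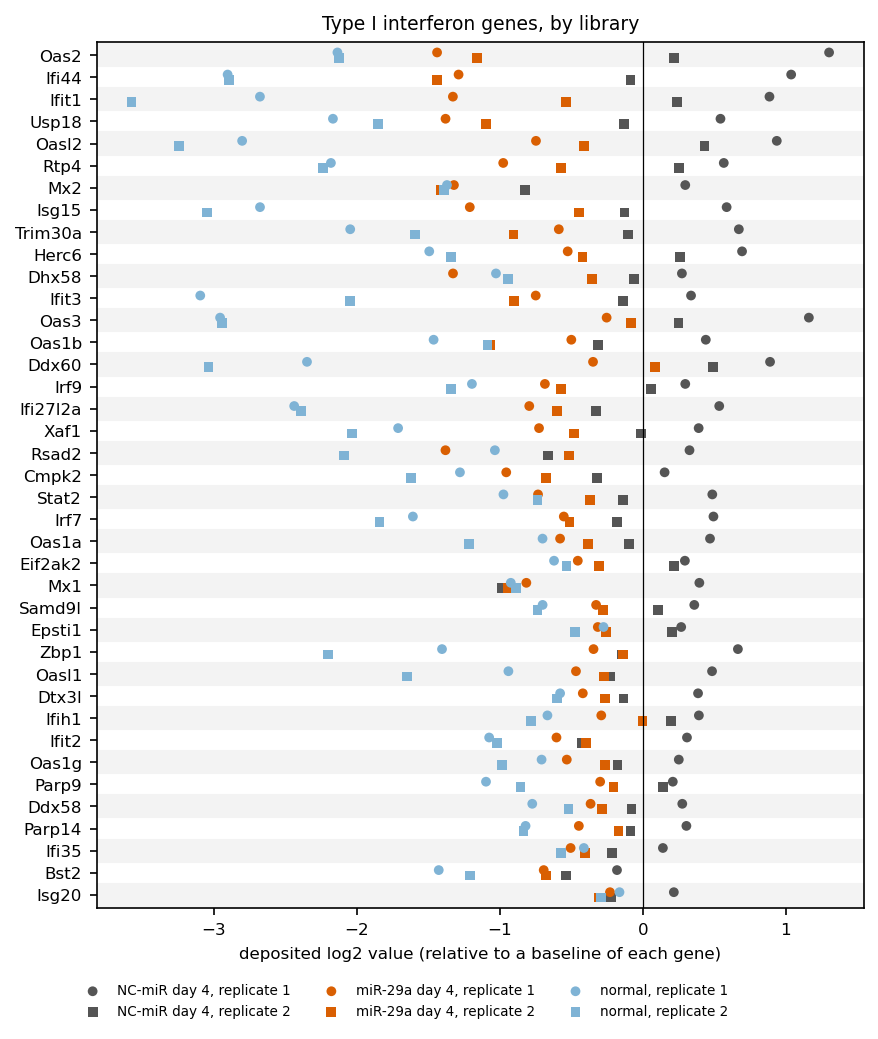
Deposited log2 values of 39 of the 40 type I interferon genes, ordered by their difference, 1 point per library (grey NC-miR, orange miR-29a, blue normal, circles replicate 1, squares replicate 2). Orange points lie left of both grey points for 35 of the 39 genes shown, and the blue points reach -3.57 for Ifit1.

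The promoters of these genes are known for the interferon-stimulated response element, whose core repeats GAAA. The letters GAAA followed by GAAA after any 2 bases were searched on both strands, overlaps allowed, in the RefSeq windows of 300 bases that run from 250 before to 50 after each start site. This pattern occurred in 14 of the 28 list members with a window (50%), against 1079 of 27025 genes (3.99%). Of the interferon-gamma and antigen presentation genes, 10 of 23 with a window held it (43.5%), of the cytosolic ribosomal protein genes 4 of 24 (16.7%), and of the unfolded protein response and clock genes 0 of 20 and 0 of 15. A match is a description of these letters and not a measured binding site. The window of Isg15 is shown because it holds 3 matches that overlap, in capitals, just ahead of the start site (GRCm38.p6, chr4:156200769-156201068, minus strand, written 5′ to 3′).
Isg15 promoter: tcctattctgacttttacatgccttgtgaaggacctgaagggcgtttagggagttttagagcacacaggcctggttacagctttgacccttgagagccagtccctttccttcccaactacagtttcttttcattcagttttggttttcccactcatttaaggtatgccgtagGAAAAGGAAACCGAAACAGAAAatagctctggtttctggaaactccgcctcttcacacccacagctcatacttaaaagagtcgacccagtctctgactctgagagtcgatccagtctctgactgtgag

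Genes of interferon-gamma and antigen presentation lay on both sides. Of 34 members, 13 were higher and 21 lower, with a median of -0.06. Without NC-miR replicate 1, 22 were higher and the median was 0.12, and without replicate 2, 25 were lower and it was -0.30. The class II genes H2-Aa and H2-Eb1, which present antigen to helper T cells, were higher with miR-29a at 0.65 ± 0.21 and 0.63 ± 0.22, and H2-Ab1 at 0.46 ± 0.20. H2-Aa read -0.25 and -0.66 with NC-miR against 0.27 and 0.12. By contrast B2m, the light chain of class I molecules, read 0.27 and -0.06 against -0.18 and -0.40 (-0.40 ± 0.17). Gbp6, a guanylate-binding protein, differed by -0.66 ± 0.59. No gene of this list was called (smallest limma adjusted p = 0.328).

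Genes of cytosolic ribosomal proteins lay on the opposite side, higher with miR-29a. All 33 listed genes were members, 33 of 33 were higher with miR-29a (53.1% of all members were), and for 32 the groups did not overlap (22.6% of all members). The median difference was 0.41, and 13 of 33 had an unadjusted p of 0.05 or less (5.14% of all members in that direction). The list median read -0.38 and -0.17 in the NC-miR libraries, 0.18 and 0.11 with miR-29a, -0.26 and 0.23 with miR-29b and 0.18 and -0.07 in normal tissue. The NC-miR libraries and 1 miR-29b library were thus the low ones. None was called, and the smallest limma adjusted p was 0.328.

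Rps19, of the small subunit, read -0.53 and -0.27 with NC-miR and 0.19 and 0.15 with miR-29a (0.57 ± 0.20). Rpl18 read -0.36 and -0.32 against 0.24 and 0.19 (0.55 ± 0.20) and Rpl3 differed by 0.47 ± 0.17. Among all 80 cytosolic ribosomal protein genes of the members, a set widened after these values were seen, 79 were higher, 77 without overlap, and the median was again 0.41. The 1 lower gene was Rps4y2, at -0.59. The 76 mitochondrial ribosomal protein genes, which serve the separate ribosome of that organelle, divided into 32 higher and 44 lower with a median of -0.03. That set was also defined after the values were seen. The 28 genes of the mitochondrial respiratory chain had a median of -0.00. Many ribosomal protein genes have near-identical processed pseudogenes, among which the authors' counting could split reads. The difference of all members also varied with 3′ UTR length, from a median of 0.072 in the shortest of 4 equal groups of members to -0.027 in the longest, and the part of transcript length in the ribosomal result was not tested.

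**Figure D3:**
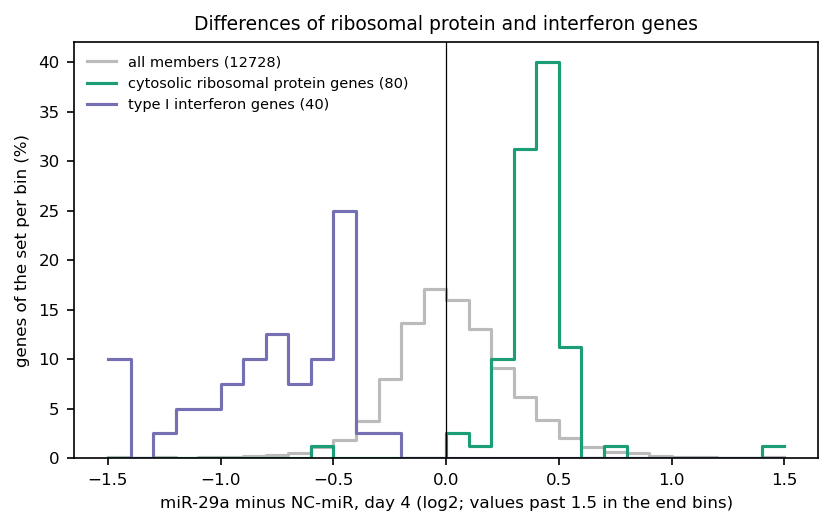
Percentage of genes in each bin of 0.1 by miR-29a minus NC-miR difference (log2), for all 12728 members (grey), the 80 cytosolic ribosomal protein genes (green) and the 40 type I interferon genes (purple). The green curve peaks near its median of 0.41, the purple curve lies wholly below 0 with a median of -0.73, and the grey curve is centred near 0.02.

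Genes of the unfolded protein response, by which cells enlarge the folding capacity of the endoplasmic reticulum, were mostly lower with miR-29a. Of 25 members, 23 had a difference below 0, the groups did not overlap for 17 with miR-29a lower (19.8% of all members) and for 0 with it higher (22.6%), and 7 were lower at an unadjusted p of 0.05 or less (2.69% of all members). The median was -0.25. Hspa5, the chaperone BiP, read 0.15 and 0.13 with NC-miR and -0.30 and -0.43 with miR-29a (-0.50 ± 0.15, limma adjusted p = 0.62). Its cochaperones followed at -0.45 ± 0.15 for Dnajb11 and -0.34 ± 0.12 for Dnajc3, the disulfide isomerase Pdia6 at -0.40 ± 0.14 and the chaperone Hyou1 at -0.41 ± 0.15. The list median read 0.14 and 0.11 in the NC-miR libraries against -0.10 and -0.12 with miR-29a. No member was called.

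Clock genes tended the other way, with 12 of 18 higher and a median of 0.28. The members of smallest p were output genes, which oscillate together under CLOCK and BMAL1. Per3 read 0.62 and 0.51 with NC-miR and 1.37 and 1.31 with miR-29a (0.77 ± 0.15, limma adjusted p = 0.358). The transcription factor Tef read 0.68 and 0.85 against 1.36 and 1.32 (0.57 ± 0.13), its relative Hlf 0.28 and 0.03 against 1.24 and 0.80 (0.87 ± 0.22), and Gm129, the repressor also named Ciart, 1.05 and 1.51 against 2.44 and 2.14 (1.01 ± 0.22). In normal tissue Per3 read -0.85 and -0.96, Tef -1.49 and -1.47 and Gm129 -2.23 and -2.22, below every NC-miR library, and Hlf read -0.66 and -0.18, nearer to NC-miR. The median of the list was 0.15 without miR-29a replicate 1 and 0.48 without replicate 2. The hour of tissue collection is not given in the sources used here.

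Detoxification genes, which oxidise and conjugate foreign compounds in the gut wall, were higher for 28 of 37 members (median 0.30), without overlap for 18 with miR-29a higher (22.6% of all members) and 2 lower (19.8%). The median was 0.14 without NC-miR replicate 1. Beside Ugt1a1 these included the cytochromes Cyp4b1 (1.00 ± 0.37) and Cyp2s1 (0.40 ± 0.16) and the glutathione transferases Gstt1 (0.47 ± 0.18) and Mgst3 (0.33 ± 0.13). Cyp2s1 read -0.34 and -0.17 with NC-miR and 0.14 and 0.15 with miR-29a. Among 25 cholesterol synthesis genes, 17 were lower and the median was -0.05. Without NC-miR replicate 1, 10 were lower (median 0.06), and without replicate 2, 20 were (median -0.28), so the direction rested on 1 library. Idi1 (-0.55 ± 0.14), Acat2 (-0.54 ± 0.18) and Nsdhl (-0.46 ± 0.17), enzymes of the pathway, lay below NC-miR.

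The established matrix targets of miR-29 were not lower as a group. Of 26 members among 35 listed matrix genes, 21 were higher and 5 lower with miR-29a, and the median was 0.14. Without overlap there were 6 higher genes, a share near the 22.6% of all members, and 0 lower, against 19.8%. Col1a1, the main chain of type I collagen, read 0.12 and -0.39 with NC-miR and 0.27 and 0.04 with miR-29a (0.29 ± 0.22, limma adjusted p = 0.765). Col1a2 differed by 0.21 ± 0.20, Col3a1 by 0.05 ± 0.17, the basement membrane collagen Col4a1 by 0.05 ± 0.17, elastin (Eln) by 0.14 ± 0.26 and Sparc, a collagen-binding glycoprotein, by 0.16 ± 0.17. The groups overlapped for all 6. Pdgfc, a growth factor (0.54 ± 0.23), Col15a1 (0.36 ± 0.18), Nid1 (0.33 ± 0.17), Mmp2 (0.31 ± 0.16) and Col4a5 (0.28 ± 0.17) were the matrix list members named with miR-29a higher and no overlap.

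The direction of the matrix list followed 1 NC-miR library. Its median read 0.14 and -0.33 with NC-miR and 0.03 and 0.05 with miR-29a, so the miR-29a libraries lay between. It was -0.10 without NC-miR replicate 2 and 0.36 without replicate 1, and 16 of 26 genes were lower in the first case. The 20 smooth muscle genes of the stroma also differed between the NC-miR libraries, with medians of 0.03 and -0.45. Unlike the matrix list, both of their miR-29a medians, 0.13 and 0.13, lay above those of NC-miR. The 20 fibroblast genes read 0.16 and -0.31 against 0.27 and 0.13. The groups did not overlap, with miR-29a higher, for 10 smooth muscle and 9 fibroblast genes (22.6% of all members). With miR-29a lower there were 0 in either list (19.8% of all members). Tagln and Myl9, contractile proteins of smooth muscle, differed by 0.42 ± 0.18 and 0.40 ± 0.17, and Dpt, a dermal and stromal matrix protein of fibroblasts, by 0.50 ± 0.15. All 20 smooth muscle and all 20 fibroblast genes had a difference above 0, and 15 of each still did without NC-miR replicate 2, with medians of 0.07 for smooth muscle and 0.05 for fibroblast genes. The part of stromal content in the matrix values was not tested.

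The regulatory targets of miR-29 were spread around 0, with 15 of 25 members higher, 10 lower and a median of 0.02. Dnmt3a, a DNA methyltransferase, read -0.11 and -0.02 against -0.02 and 0.37 (0.24 ± 0.22). The demethylases Tet3 and Tet2 differed by 0.13 ± 0.16 and -0.11 ± 0.20, the survival gene Mcl1 by -0.04 ± 0.15, the cell cycle kinase Cdk6 by 0.60 ± 0.34, the repressor Hbp1 by 0.27 ± 0.16 and Glul, glutamine synthetase, by 0.33 ± 0.15. Cldn1, a tight junction claudin, differed by 0.00 ± 0.27. Bmf, a BH3-only death gene counted among miR-29 targets, read -0.57 and -0.56 with NC-miR and 0.32 and 0.45 with miR-29a (0.95 ± 0.20, limma adjusted p = 0.441). Its miR-29a values thus lay above its NC-miR values without overlap, and beside the normal values of 0.35 and 0.15. Dnmt3b and Il23a lay at the floor in all 4 libraries, as did Il12b, Il6, Tnf and Ifng, so that nothing can be said of their difference.

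**Figure D4:**
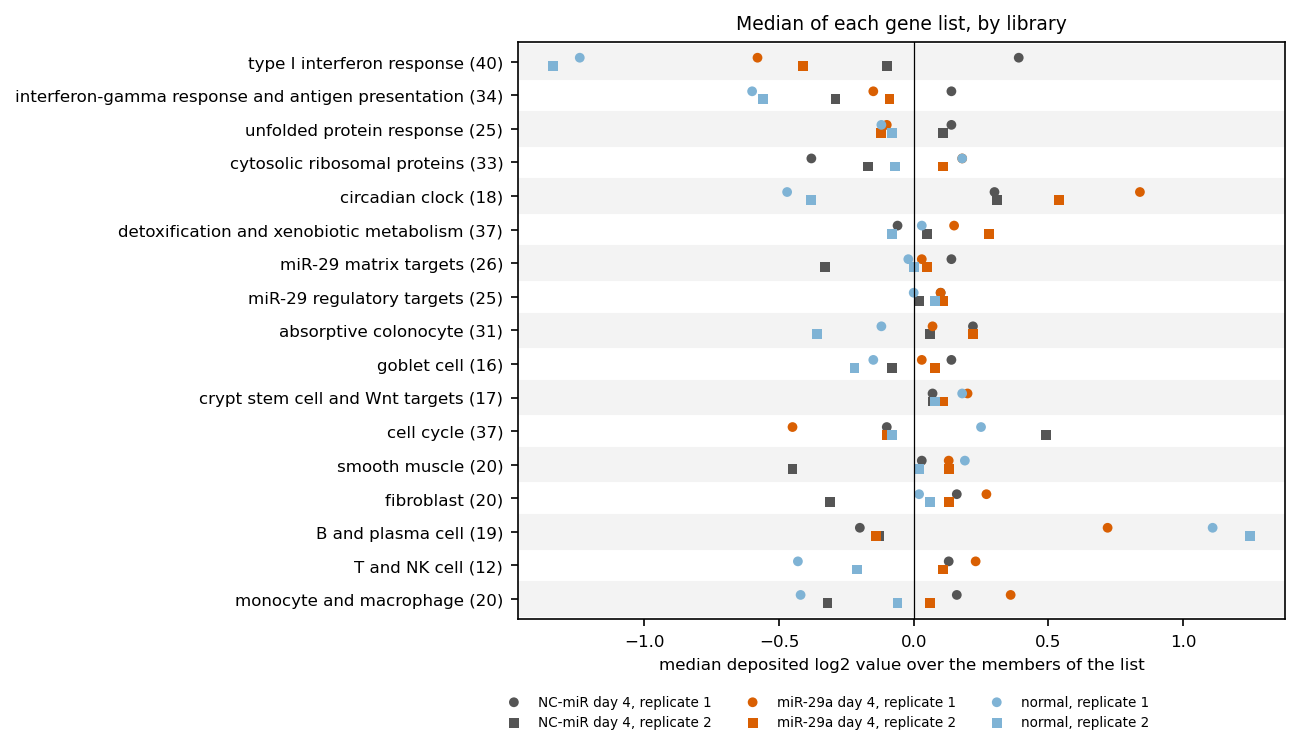
Median deposited log2 value over the members of 17 gene lists (number of members in brackets), 1 point per library (grey NC-miR, orange miR-29a, blue normal, circles replicate 1, squares replicate 2). The orange points lie below both grey points for type I interferon and unfolded protein response genes. They lie above both for ribosomal protein, clock, detoxification, crypt and smooth muscle genes. Those of the matrix targets lie between grey points at 0.14 and -0.33.

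Seed matches gave a wider view of possible targets. The letters TGGTGCT pair with the miR-29 seed, and TGGTGCTA adds the adenosine that favours Argonaute binding. In the longest annotated 3′ UTR of each gene (GENCODE vM21, GRCm38, transcript strand only, the 8-base match being also a 7-base match), 2734 of 20968 UTRs held the 7-base match (13%) and 597 the 8-base match (2.85%). The lists named for miR-29 targets held it far more often, at 21 of 26 matrix members and 21 of 25 regulatory members with a 7-base match. Sites of 27 bases are shown for genes on which the target result turns, with the match in capitals.
Col1a1: ggtgggaaggaatttcTGGTGCTAtag
Col3a1: cttcaaaatgtctcaaTGGTGCTAtaa
Eln: gcgacctcatcaacgtTGGTGCTActg
Mcl1: gctagagtcttaaccaTGGTGCTAttc
Bmf: atgtaaggaaagacatTGGTGCTAtaa
Shroom2: tgcataagaaacaatcTGGTGCTAatg
Homer1: cctgagatggcagctgcTGGTGCTttc
Each is an exonic 3′ UTR site of GRCm38, for Col1a1 at chr11:94952522-94952548 (plus strand), Col3a1 at chr1:45348966-45348992 (plus), Eln at chr5:134703733-134703759 (minus), Mcl1 at chr3:95661843-95661869 (plus), Bmf at chr2:118531353-118531379 (minus), Shroom2 at chrX:152610198-152610224 (minus) and Homer1 at chr13:93358700-93358726 (plus). The first 6 carry the 8-base match and Homer1 the 7-base match. Among the 6 genes printed with the same 8 letters, differences ran from -0.50 ± 0.12 for Shroom2 to 0.95 ± 0.20 for Bmf.

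Members with and without a seed match were compared by their medians. The 1832 members with a 7-base match had a median difference of -0.016, and the 10371 without one a median of 0.022. The share lower without overlap was 22.4% with a match and 19.5% without. More matches did not go with lower values, since the median was -0.007 for the 274 members with 2 or more and 0.031 for the 51 with 3 or more. With an 8-base match (375 members) the median was -0.003. Matched genes have longer 3′ UTRs, with a median of 2388 bases against 978, and within 4 equal groups of UTR length the medians without and with a 7-base match were 0.073 and 0.051, 0.033 and 0.001, -0.000 and 0.009, and -0.019 and -0.039, from the shortest UTRs to the longest. In 3 of the 4 groups the matched genes were lower, by at most 0.032, and in 1 higher.

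Tet3 had 8 matches, the largest number among the regulatory targets named here, and Dnmt3a and Tet2 had 5 each. Tet3 and Dnmt3a had differences above 0, while Tet2 read 0.24 and 0.05 with NC-miR and 0.02 and 0.04 with miR-29a (-0.11 ± 0.20). Col4a5, with 3 matches of 8 bases, was 0.28 ± 0.17 higher. Col1a2 had no match in the UTR used. The 8-base genes of smallest p with miR-29a lower, named after their values were seen, included Shroom2, an actin-binding protein, with 0.33 and 0.17 under NC-miR and -0.23 and -0.27 under miR-29a (limma adjusted p = 0.528). Ube2f, a NEDD8-conjugating enzyme (-0.43 ± 0.14), and Mettl14, a subunit of the RNA adenosine methyltransferase (-0.31 ± 0.13), were also among them, though not next in rank. The 8-base genes of smallest p with miR-29a higher were Bmf, given above, and Aplnr (0.65 ± 0.20). Of the 375 members with an 8-base match, 14 had an unadjusted p of 0.05 or less with miR-29a lower (3.73%) and 12 with it higher (3.2%), against 2.65% and 5% of all members with a 3′ UTR.

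**Figure D5:**
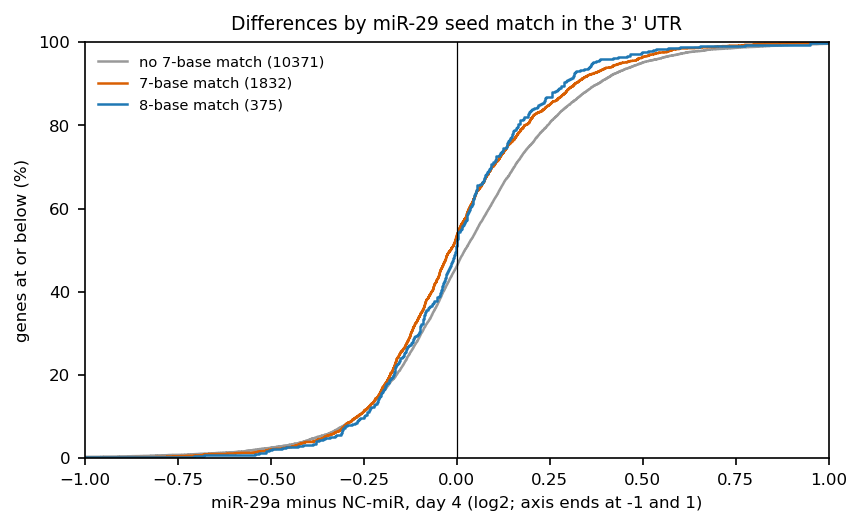
Percentage of members at or below each miR-29a minus NC-miR difference (log2, axis from -1 to 1) for genes with no 7-base match (grey, 10371), a 7-base match (orange, 1832) and an 8-base match (blue, 375). The curves run close together, with medians of 0.022, -0.016 and -0.003.

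Inflammatory mediators above the floor were few, with 13 members of 28 listed, of which 8 were higher and 5 lower (median 0.17, and 0.03 without miR-29a replicate 1 or 0.38 without NC-miR replicate 1). Ccl20, the epithelial ligand of CCR6, read -0.99 and -0.70 with NC-miR and -0.22 and -0.15 with miR-29a (0.66 ± 0.21). Ccl8 read -0.25 and -0.93 against 0.31 and 0.33 (0.91 ± 0.31). Neither chemokine overlapped between groups, while Ccl5 (0.49 ± 0.35) and Il1b (0.36 ± 0.38) did. S100a8, a neutrophil alarmin, read -0.29 and -0.01 against -0.64 and -1.21 (-0.78 ± 0.94), beside 0.39 and 0.98 with miR-29b. It was the 1 lower gene of 4 neutrophil members, and the other 3, S100a9 among them, were higher. In the axis of IL-23, IL-6 and TGF-beta, 8 of 16 members were higher and 8 lower (12 lower without NC-miR replicate 2), with Tgfb1 at -0.21 ± 0.28 and Smad7, an inhibitor of its signalling, at 0.39 ± 0.18.

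Of 34 absorptive colonocyte genes listed, 31 were members and so were detected in the tissue labelled colorectum. Of these, 19 were higher with miR-29a and 12 lower, with a median difference of 0.03. Aqp8, the water channel of surface colonocytes, read -0.07 and 0.16 with NC-miR and 0.89 and 1.00 with miR-29a (0.90 ± 0.26), and the chloride exchanger Slc26a3 0.22 and 0.39 against 0.86 and 0.62 (0.43 ± 0.18). Trpm6, the magnesium channel, lay lower with miR-29a (-0.71 ± 0.20). The 16 goblet cell members divided evenly, 8 higher and 8 lower, and the 22 tight junction and mucin members had a median of -0.00, with Cldn8 at -0.69 ± 0.27 and Cldn3 at 0.36 ± 0.16.

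Crypt genes were higher for 12 of 17 members (median 0.27, and 0.15 without NC-miR replicate 1), among them the Wnt targets Rnf43 (0.49 ± 0.20) and Axin2 (0.73 ± 0.37). Cell cycle genes were lower for 29 of 37 (median -0.48), without overlap for 12 (19.8% of all members). The median was -0.21 without miR-29a replicate 1 or NC-miR replicate 2, and -0.74 without NC-miR replicate 1. Mki67, the proliferation antigen, read 0.00 and 0.83 with NC-miR and -0.81 and 0.10 with miR-29a (-0.77 ± 0.37), while the groups did not overlap for Foxm1 (-0.71 ± 0.34), a transcription factor of cell division, and the spindle checkpoint kinase Bub1 (-0.79 ± 0.38). The list median read -0.10 and 0.49 with NC-miR against -0.45 and -0.10, so that 1 library of each group was level. The enteroendocrine genes Pcsk1n (0.86 ± 0.31) and Isl1 were higher, in a list of 17 members with a median of 0.07.

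Among immune and vascular cell markers, all 19 B and plasma cell genes were higher with miR-29a (median 0.49), but their median read -0.20 and -0.13 with NC-miR and 0.72 and -0.14 with miR-29a, so the list was high in 1 miR-29a library. The median difference was 0.11 without that library. For 5 of the 19 genes the groups did not overlap (22.6% of all members). Spib, a transcription factor of B cells and of M cells, was among them. It read -0.42 and -0.73 with NC-miR and 0.32 and 0.54 with miR-29a (1.01 ± 0.18, limma adjusted p = 0.328). Cd79a, of the B cell receptor, read -1.02 and -0.06 with NC-miR and 0.89 and 0.07 with miR-29a. Of 12 T and NK cell members 9 were higher (median 0.35, and 0.08 without NC-miR replicate 2), with Cd3d at 0.61 ± 0.19, its lower NC-miR library being at the floor, and Lck at 0.54 ± 0.18, while the granzyme Gzma lay lower at -0.91 ± 0.47. Of 18 endothelial members 13 were higher and 5 lower (median 0.14). Without NC-miR replicate 2, 14 were lower and the median was -0.13. Vwf, the highest of them, read -0.10 and -0.44 against 0.55 and 0.28 (0.68 ± 0.16). Of 20 monocyte and macrophage members 18 were higher (median 0.28, and 0.03 without NC-miR replicate 2), with the monocyte receptor Ccr2 at 0.53 ± 0.20. Only 4 neutrophil and 3 mast cell or eosinophil genes lay above the floor. The neutrophil genes were 3 higher and 1 lower (median 0.27, and -0.12 without NC-miR replicate 1).

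Against miR-29b, which shares the seed, miR-29a had no called feature (0 by limma at an adjusted p of 0.05, with 970 of 13050 at an unadjusted p of 0.05 or less). The smallest adjusted p was 0.665. Type I interferon genes were lower with miR-29a than with miR-29b for 34 of 40 (median -0.32). Both comparisons share the miR-29a libraries, so this value is not independent of the difference from NC-miR. Ugt1a1 was 0.69 higher and Hspa5 0.38 lower than with miR-29b, and these differences did not pass limma (adjusted p = 0.665 and 0.667).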

How the data were processed

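Total RNA of mouse colorectum was made into stranded mRNA libraries, per the labels' protocols. The submitters' processing notes name Cuffnorm 2.2.1, TopHat2 2.0.13, SAMtools 0.1.19, Bowtie2 2.2.3 and build mm10, and no settings. The deposited values are headed FPKM, but each is a log2 ratio of a gene to its own baseline. Base 2 was read from the decimals. The files give no counts, so depth is unknown, and 12677 to 12937 features per library lay above the floor. A feature was at the floor where libraries shared its lowest value (within 0.0001, in 2 or more libraries). The height of the floor is not given in the sources used here, so a difference from a group at the floor is a bound, and its standard error may be too small.

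One mean per group was fitted to the 10 libraries with limma 3.58.1 (R 4.3.3), with 5 residual and 3.26 prior degrees of freedom and Benjamini-Hochberg adjustment over 13050 features. No further normalization was applied, and the log2(FPKM + 1) of the planned design was not used. The scripts were tested on simulated data. NC-miR days rest on the sample labels. Members and the 30 lists (755 genes, 750 found, 607 members) were chosen with earlier results of these data known. Genes were named by rule: the 12 smallest p in each direction without overlap and without provisional symbols, the 8 largest differences in each direction at an unadjusted p of 0.05 without overlap, up to 5 smallest p and 2 largest differences per list, and 30 fixed names. Not every gene the rule allows is printed, and some are not reported here. The alternatives were other floors, centring, other sets of libraries, robust or weighted fits, a replicate block and leaving out each library.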

Additional observations from a re-analysis of the deposited data

How the results depend on the processing

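Depth is unknown, so the precision rests on 2 libraries per group. The count of calls, 0 in the 10-library fit, was 1 without the floor filter (Ghrl, lower), 2 in the fit to 4 libraries, and 0 to 3 when 1 library was left out, with 3 lower without NC-miR replicate 2 (Krt13, Krt14, Spink5) and 1 higher without miR-29a replicate 2 (Mir3074-1). It was 0 for features above the floor in all 4 libraries, with centring, a raised floor, robust or weighted fits, or no normal libraries. Replicate numbers are shared between groups, but their deviations correlated at only 0.082 over 2 pairs. With the replicate block, 2 features were called in the 4 libraries and 0 in the 10. With 1 library left out, list medians ranged from -1.01 to -0.41 for type I interferon, -0.05 to 0.09 for regulatory targets, 0.15 to 0.48 for clock, -0.28 to -0.24 for unfolded protein response and 0.14 to 0.29 for detoxification genes, and the median gap by seed match, -0.038 in all libraries, from -0.051 to -0.018. It was -0.019 for the 8-base match. Of the named genes, Col3a1 (-0.14 to 0.25), Col4a1 (-0.18 to 0.27), Eln (-0.23 to 0.51), Sparc (-0.00 to 0.32), Mcl1 (-0.11 to 0.02), Cldn1 (-0.13 to 0.14), Il1b (-0.02 to 0.73) and Tgfb1 (-0.54 to 0.12) changed sign with a library left out, and Cldn1 was -0.00 after centring. The cause was not tested.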
